A study of Homo sapiens with 6 samples.

Results

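HMGA1 and HMGA2 were described in IR-PAR-CLIP data of IGF2BP3, in which RNA crosslinked to the protein is sequenced. The cells were HCT116, a line from a human colorectal carcinoma. The clusters were chosen by position: every cluster that shared at least 1 nt on the same strand with an exon of either gene in GENCODE release 44 was taken. Of the 244645 clusters in the 6 libraries, 127 met this rule, 37 of them on HMGA1 and 90 on HMGA2. All 6 libraries came from cells of the genotype Tet-OsTIR1-PURO, and 100 µM 4-thiouridine was given for 15 h before crosslinking at 365 nm. IGF2BP3 was precipitated with one antibody after RNase I at 0.05/0.05, 0.1/0.025 or 0.05/0.025 U/µL or after RNase T1 at 1/1 or 0.25/0.25 U/µL, where the first value is the in-lysate and the other the on-beads concentration. The control was an IgG precipitation after RNase I at 0.1/0.025 U/µL. Each condition was 1 library, so no test between conditions was possible, and every interval below is a 95% interval that covers counting error only. The antibody is described by the authors as also binding IGF2BP2 in part. The methods assign electroelution to RNase I 0.05/0.05 and RNase T1 1/1 and crushed gel to the other 3 IGF2BP3 libraries, so that gel extraction and RNase concentration cannot be told apart between these sets. How the gel of the IgG library was extracted was not stated.

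HMGA1 and HMGA2 are small chromatin proteins that bind the minor groove of AT-rich DNA through AT-hooks and bend it, and both are abundant in embryonic and tumour cells. The let-7 miRNAs repress HMGA2 through sites in its long 3′UTR, a textbook case of miRNA control, and HMGA1 is also a let-7 target. IGF2BP3 is an oncofetal RNA-binding protein that binds mainly 3′UTRs and is known for stabilizing its bound mRNAs. RNase T1 cuts after G, whereas RNase I has little base preference.

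HMGA1 (ENSG00000137309.21) lies on chr6:34236873-34246231 of GRCh38, plus strand, and its canonical 3′UTR is chr6:34244882-34246231, 1350 nt within a single exon. HMGA2 (ENSG00000149948.14) lies on chr12:65824460-65966291, plus strand, and its canonical 3′UTR is chr12:65963290-65966291, 3002 nt. Positions in the 3′UTRs are counted from 1 at the first base of the stop codon. The HMGA1 3′UTR was 24.2% G and 23.3% T, whereas that of HMGA2 was 17.3% G and 33.1% T. The HMGA2 3′UTR therefore offered fewer cutting sites to RNase T1 per length and more positions for 4-thiouridine. It held 22 runs of at least 18 nt without a G, the longest of 40 nt, against 6 runs in HMGA1, the longest of 30 nt.

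The let-7 family is shown because its sites tie the 3′UTR maps to known control of these mRNAs. Its mature miRNA let-7a, from RefSeq with GRCh38.p14, is given with its seed, bases 2 to 8, in capitals, and the 5 matches to that seed in the canonical 3′UTRs are given with the matching bases in capitals.
hsa-let-7a-5p: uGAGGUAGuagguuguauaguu
HMGA1, chr6:34245829-34245858: tcctctgttcacaaaCTACCTCtggacagt
HMGA2 match 1, chr12:65963298-65963327: gccaacgttcgatttCTACCTCagcagcag
HMGA2 match 2, chr12:65964533-65964562: ccccactactcaataCTACCTCtgaatgtt
HMGA2 match 3, chr12:65964945-65964974: ttgacttgcaaagacCTACCTCcagacttc
HMGA2 match 4, chr12:65965798-65965827: aatcaaaacacactaCTACCTCttaagtcc
The motif searched was CTACCTC on the transcript strand. A seed match was held by 8.02% of 17540 windows of 1350 nt cut from all canonical 3′UTRs and by 17.3% of 4869 windows of 3002 nt. At least 4 matches, the number in HMGA2, were held by 2 of those 4869 windows, of which 1 was that of HMGA2 itself.

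The fragments below come from the clusters in which RNase T1 left the most reads per nucleotide. The middle of a cluster need not be where its own reads were densest. Each is the middle 30 nt of the densest RNase T1 cluster of a gene and library, or of the HMGA1 cluster in the IgG library, with the tetramers CATT, CAGT and CATA in capitals.
HMGA1, RNase T1 1/1, chr6:34245622-34245651: tgCAGTcacttattgtccaggtgaggccca
HMGA1, RNase T1 0.25/0.25, chr6:34245908-34245937: ctgctaccagcgccaaatgttcatcctcat
HMGA1, IgG, chr6:34245879-34245908: gttcCATTcttcgacatccgtCATTgctgc
HMGA2, RNase T1 1/1, chr12:65964836-65964865: ggataattttcctcaatcacactacacatc
HMGA2, RNase T1 0.25/0.25, chr12:65964525-65964554: caatatatccccactactcaatactacctc
Neither HMGA2 fragment held any of the 3 tetramers, and the last of them ends with let-7 match 2.

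The libraries differed in depth. The clusters of the IGF2BP3 libraries held 182448 to 2362467 reads and those of the IgG library 324 reads. Levels are given as CPM, the reads of a gene scaled to 1000000 cluster reads of its library, which are not library sizes, and 3 reads, the most that a count of 0 allows, correspond to 1.27 CPM with RNase I 0.05/0.05 and to 16.4 CPM with RNase T1 0.25/0.25. Among the markers checked, each of the 5 epithelial genes had clusters in at least 1 IGF2BP3 library, whereas PTPRC, CD3E, PECAM1, COL1A1 and COL3A1 had none in any library. Of the epithelial genes, 3 had none with RNase T1 0.25/0.25 and 1 had none with RNase I 0.1/0.025. Of the intestinal markers, VIL1 had none and CDX2 had 4.32 CPM in 1 library. The deposited clusters list bound RNA, so that a missing marker does not show that the gene was silent.

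HMGA1 was among the most heavily recovered mRNAs. After RNase I it had 7385 reads in 6 clusters at 0.05/0.05, 3741 in 4 clusters at 0.1/0.025 and 2941 in 6 clusters at 0.05/0.025. With RNase T1 it had 2086 reads in 7 clusters at 1/1 and 861 in 13 at 0.25/0.25. It ranked 8th to 10th of 7282 to 11080 genes with RNase I, 28th of 8723 with RNase T1 1/1 and 14th of 3716 with RNase T1 0.25/0.25. In CPM, HMGA1 was at 3126 (3055 to 3198), 4656 (4508 to 4808) and 4385 (4228 to 4546) in the RNase I libraries in the same order, at 1803 (1726 to 1882) with RNase T1 1/1 and at 4719 (4409 to 5045) with RNase T1 0.25/0.25. RNase T1 1/1 gave the lowest value, and the intervals of RNase I 0.1/0.025 and RNase T1 0.25/0.25 overlapped.

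HMGA2 had fewer reads spread over more clusters. In the same order of RNase I libraries it had 2742, 1162 and 952 reads in 15 clusters each, 1808 reads in 26 clusters with RNase T1 1/1 and 447 in 19 with RNase T1 0.25/0.25. Its levels were 1161 CPM (1118 to 1205), 1446 (1364 to 1532) and 1419 (1331 to 1512) in the RNase I libraries, 1562 (1491 to 1636) with RNase T1 1/1 and 2450 (2228 to 2688) with RNase T1 0.25/0.25. It ranked 37th to 71st in the 5 libraries, and both RNase T1 values were above those of the RNase I libraries, although the interval of RNase T1 1/1 overlapped those of RNase I 0.1/0.025 and 0.05/0.025.

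**Figure D1:**
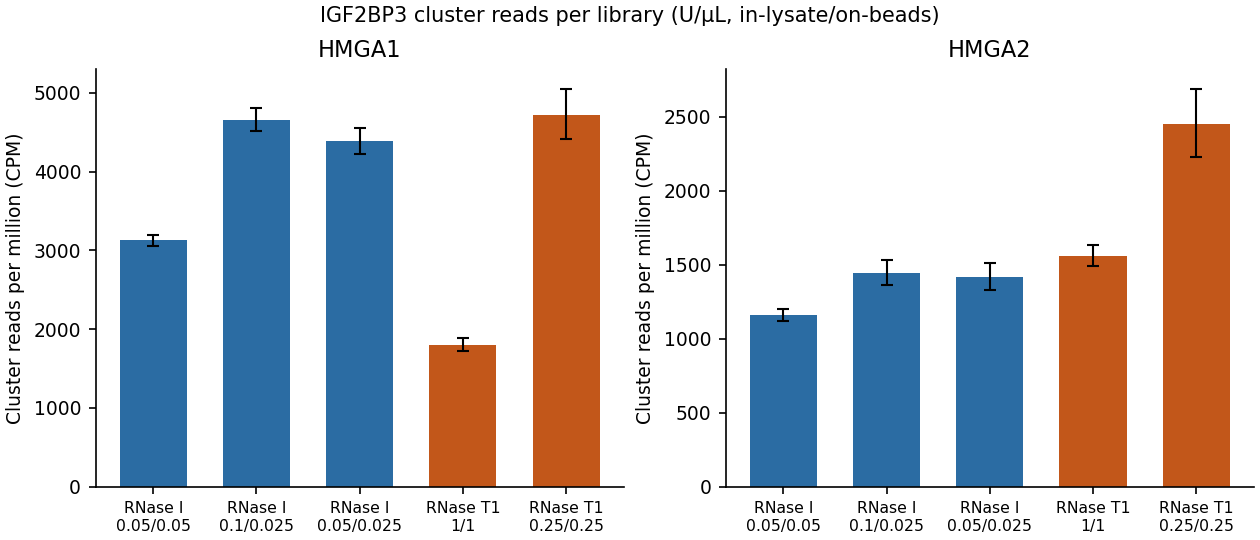
CPM of HMGA1 (left) and HMGA2 (right) in the 5 IGF2BP3 libraries, with exact Poisson 95% intervals as error bars and RNase I in blue and RNase T1 in orange. HMGA1 was lowest with RNase T1 1/1, at 1803 CPM, whereas HMGA2 was lowest with RNase I 0.05/0.05, at 1161 CPM.

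Per length, HMGA1 exceeded HMGA2 in every IGF2BP3 library. On the canonical 3′UTRs, HMGA1 had 2301, 3434 and 3237 CPM per kb in the RNase I libraries and 1332 and 3496 CPM per kb in the RNase T1 libraries, in the order given above. HMGA2 had 384, 482 and 469 CPM per kb with RNase I and 520 and 816 with RNase T1. The ratio of HMGA1 to HMGA2 per kb of 3′UTR was 5.99 (5.73 to 6.26), 7.13 (6.67 to 7.62) and 6.90 (6.41 to 7.44) with RNase I, 2.56 (2.40 to 2.73) with RNase T1 1/1 and 4.28 (3.82 to 4.81) with RNase T1 0.25/0.25. The gap between the genes was thus narrower in both RNase T1 libraries, beyond counting error. Over the union of all annotated exons, 2327 nt for HMGA1 and 15070 nt for HMGA2, HMGA2 over HMGA1 per kb was 0.0573 in the median library, where its counting interval was 0.0549 to 0.0599, and ranged from 0.0480 to 0.134 over the 5 libraries. Most of the HMGA2 exons in this union belong to other transcripts, and with the canonical transcripts, 1920 and 4117 nt, the median was 0.172. A level here is the product of mRNA amount and binding, which cannot be told apart without the RNA input.

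The question of the series is how the choice of RNase alters what is recovered, and the libraries were therefore compared in 6 pairs, of which some share a library. In the electroeluted pair, HMGA1 was higher with RNase I 0.05/0.05 than with RNase T1 1/1 by 1.73-fold (1.65 to 1.82), whereas HMGA2 was lower, at 0.743 (0.700 to 0.789). Of 8685 genes with at least 20 reads in that pair, 56.2% were higher with RNase I. This share moved with the minimum of reads. Of the 2477 genes with at least 100 reads in each library of the pair, 38.2% were higher with RNase I, the median ratio was 0.864, 90.7% of genes had a lower ratio than HMGA1 and 36.3% a lower ratio than HMGA2. HMGA1 was therefore near the upper end of the well covered genes, and HMGA2 below their middle.

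In the crushed-gel libraries neither member was higher with RNase I. HMGA1 gave 0.987 (0.916 to 1.06) for RNase I 0.1/0.025 over RNase T1 0.25/0.25 and 0.929 (0.861 to 1.00) for RNase I 0.05/0.025, so that both intervals held 1. Without the clusters at the site of the IgG cluster described below, they fell to 0.550 and 0.480. HMGA2 gave 0.590 (0.529 to 0.660) and 0.579 (0.517 to 0.6497), both lower with RNase I. Of all genes with at least 20 reads, 67.4% and 65.7% were higher with RNase I in these pairs, but of the 390 genes with at least 100 reads in each library only 18.2% and 19.5% were, with median ratios of 0.759 and 0.763. Among the latter, 80.5% and 72.3% had lower ratios than HMGA1, and 20.3% and 19.7% had lower ratios than HMGA2. Both RNase I libraries were set against the same RNase T1 library.

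The RNase T1 libraries differed more for HMGA1 than for HMGA2, and they also differ in gel extraction. RNase T1 1/1 over 0.25/0.25 was 0.382 (0.353 to 0.414) for HMGA1 and 0.638 (0.575 to 0.709) for HMGA2, against a median of 0.593 over 389 genes with at least 100 reads in each. Of these genes, 10.5% were higher with RNase T1 1/1, as were 70.4% of the 5849 genes with at least 20 reads in the pair. HMGA1 was lower by at least 2-fold, as were 32.9% of the former and 10.3% of the latter genes. With RNase I, the higher in-lysate concentration changed HMGA1 by 1.06-fold (1.01 to 1.11) and HMGA2 by 1.02-fold (0.934 to 1.11), where 51.8% of genes with at least 20 reads and 46.7% of those with at least 100 in each were higher. The higher on-beads concentration went with 0.713 (0.683 to 0.744) for HMGA1 and 0.818 (0.759 to 0.881) for HMGA2, where 64.2% and 33.4% of genes were higher, in a pair that also differed in gel extraction.

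**Figure D2:**
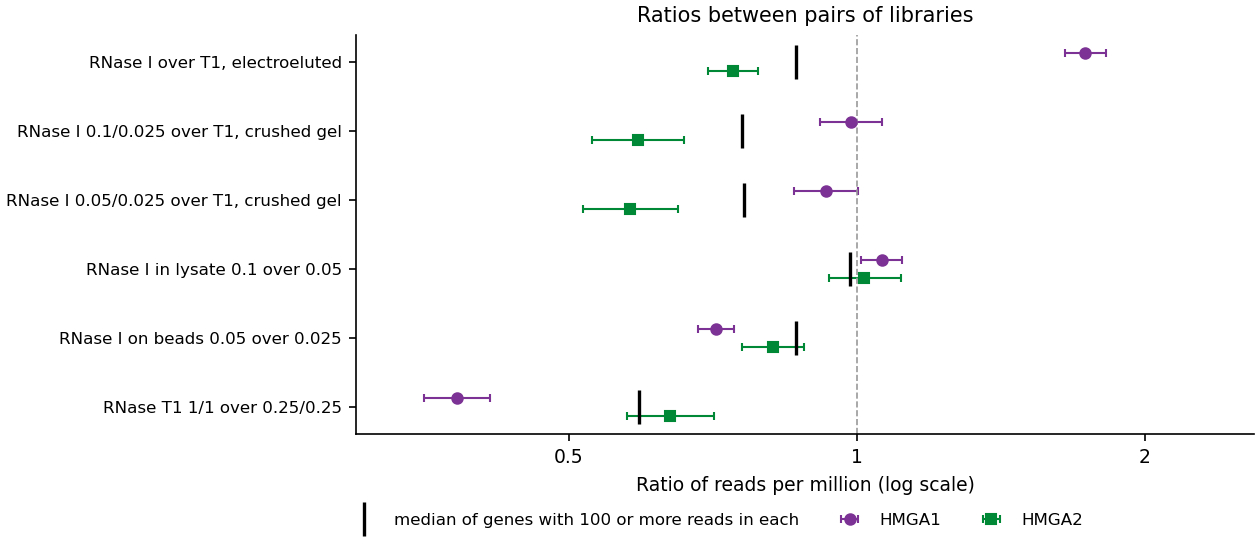
Ratios of CPM between pairs of libraries for HMGA1 (circles) and HMGA2 (squares) on a log axis, with exact conditional binomial 95% intervals, and the median over genes with at least 100 reads in each library (vertical ticks). In the 3 pairs of RNase I over RNase T1, HMGA1 lay above the tick and HMGA2 below it.

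Nearly all of the recovered RNA came from the 3′UTRs. Clusters that overlapped the canonical 3′UTR held 99.4% to 100% of the HMGA1 reads and 99.2% to 100% of the HMGA2 reads in the IGF2BP3 libraries. Outside it, HMGA1 had 4 clusters with 45 reads with RNase I 0.05/0.05, the largest of them in the 5′UTR at chr6:34236909-34236964 with 22 reads. HMGA2 had 3 clusters with 18 reads there, 2 of them in an exon of other transcripts at chr12:65915150-65915193 and chr12:65915284-65915346. RNase T1 0.25/0.25 gave no cluster outside the 3′UTR of either gene. Reads across splice junctions could not be placed by the unspliced alignment, which bears on the short coding exons. Introns of HMGA2, which are not part of the set, held 4 clusters with 29 reads with RNase I 0.05/0.05 and 3 with 14 reads with RNase T1 1/1, and those of HMGA1 held none.

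The HMGA1 3′UTR was covered almost from end to end. After RNase I, clusters covered 99.6% of it at 0.05/0.05, 98.4% at 0.1/0.025 and 96.1% at 0.05/0.025, and after RNase T1 91.6% at 1/1 and 77.6% at 0.25/0.25. The median gene with a 3′UTR cluster was covered to 23.3%, 13.2%, 12%, 7.80% and 4.73% in the same libraries, and at least 99.4% of genes were below HMGA1 in each. In the electroeluted pair coverage was larger with RNase I by 7.93 percentage points, as it was for 94.7% of 6296 genes with 3′UTR clusters in both libraries. In the crushed-gel pairs, where 98.2% and 97.2% of genes were covered more with RNase I, the difference was 20.7 and 18.4 points. Coverage was also larger with RNase T1 1/1 than with 0.25/0.25, as for 91.3% of genes, with RNase I 0.05/0.05 than with 0.05/0.025, as for 95.2%, and with RNase I 0.1/0.025 than with 0.05/0.025, as for 68.3%, and HMGA2 differed in the same directions. In each of these pairs the library with the larger coverage also had more cluster reads, and depth was not matched. With RNase I 0.05/0.05 the 3′UTR fell into 2 clusters, nt 527 to 1345 with 5244 reads and a cluster that ran from the last coding bases to nt 525 with 2096 reads. With RNase T1 0.25/0.25 the same stretch fell into 13 clusters of 24 to 224 nt.

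A single site stood out in HMGA1 with RNase T1 0.25/0.25. The cluster at nt 981 to 1101 (chr6:34245862-34245982) held 367 of the 861 reads, 42.6%, or 3.03 reads per nt, while the next densest, nt 809 to 893, had 1.22 reads per nt. With RNase T1 1/1 the cluster there, nt 984 to 1179, held 356 of 2086 reads, 17.1%, and the most reads lay upstream at nt 539 to 971 with 942 reads. When the 3′UTR was cut into 5 equal parts, that of nt 811 to 1080 took 52.7% of 3′UTR reads with RNase T1 0.25/0.25 and 24.0% to 29.4% in the other 4 IGF2BP3 libraries, with reads spread evenly over their cluster. The 2 RNase T1 libraries therefore placed their densest HMGA1 cluster in different parts of the 3′UTR. With RNase T1 1/1, however, these 2 clusters differed little in density. The upstream cluster had 2.18 reads per nt over 433 nt, and that at nt 984 to 1179 had 1.82 over 196 nt.

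The same site held the only member cluster of the IgG library. It was 39 nt long, nt 993 to 1031 (chr6:34245874-34245912), with 8 reads and 5 conversion events, and it lay within the densest RNase T1 0.25/0.25 cluster. These 8 reads were 2.47% of the 324 IgG cluster reads (95% Wilson interval 1.26% to 4.80%), whereas HMGA1 took 0.466% of the cluster reads with IGF2BP3 at the matched RNase I 0.1/0.025. In reads, HMGA1 was 468-fold higher with IGF2BP3 at that RNase, against 2480-fold for all cluster reads. Clusters that overlapped the IgG site held 68.0% to 71.0% of the HMGA1 reads with RNase I, where they were 650 to 819 nt long, 17.1% with RNase T1 1/1 and 42.6% with RNase T1 0.25/0.25. Without them, the ratio of RNase I 0.05/0.05 over RNase T1 1/1 turned from 1.73 to 0.606. This removed a much longer stretch from the RNase I library, and the reads of the site alone cannot be separated from those of its cluster. HMGA2 had 0 of 324 IgG reads, which allows a share of up to 0.926%, more than its 0.116% to 0.245% in the IGF2BP3 libraries, so that depletion from IgG was not detectable at this depth.

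**Figure D3:**
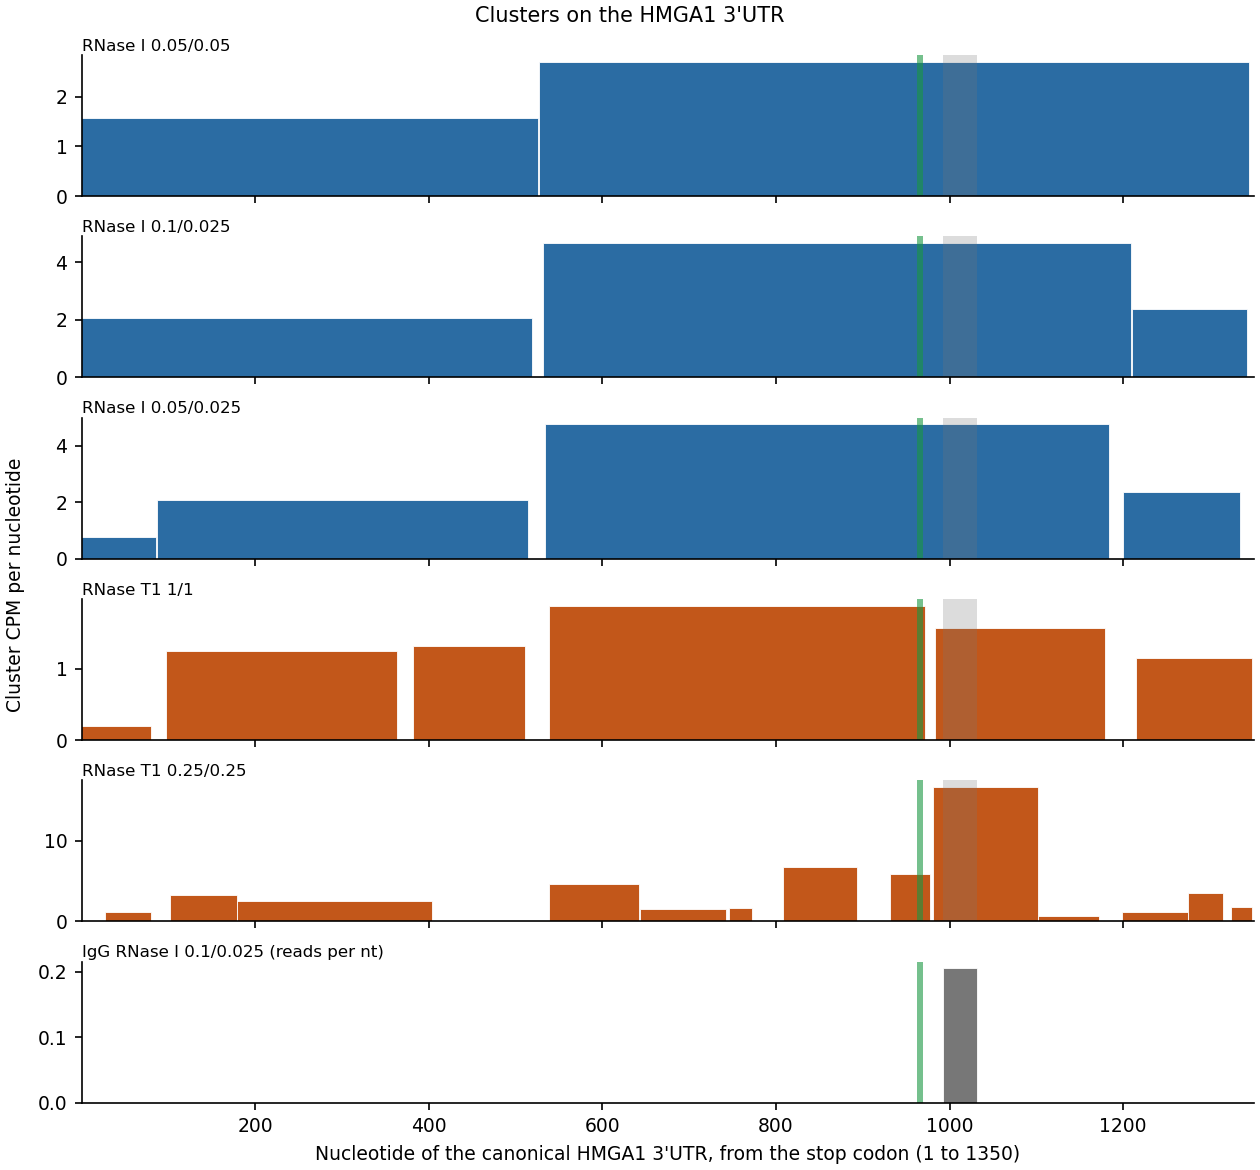
Clusters along the canonical HMGA1 3′UTR (nt from the stop codon), each as a block of its length with a height of its CPM per nucleotide, or its reads per nucleotide for IgG, on an axis of its own per library. The green line marks the let-7 match and the grey band the IgG cluster at nt 993 to 1031, which lies under the tallest block of RNase T1 0.25/0.25.

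HMGA2 was covered less completely on its canonical 3′UTR. Clusters covered 92.1%, 72.7% and 68.7% of its 3′UTR with RNase I 0.05/0.05, 0.1/0.025 and 0.05/0.025, and 52.0% and 35.0% with RNase T1 1/1 and 0.25/0.25. These shares exceeded those of 94.5% to 97.3% of genes. The difference between RNase I and RNase T1 was 40.04 percentage points in the electroeluted pair and 37.7 and 33.7 points in the crushed-gel pairs, again not matched for depth and set against the shares of genes given for HMGA1 above. On the canonical 3′UTRs these were larger differences than those of HMGA1, which was almost fully covered with RNase I. The order of the genes depended on the annotation in the crushed-gel pairs: with the 3′UTRs of all coding transcripts the HMGA2 differences were 10.6, 9.19 and 8.67 points, while those of HMGA1 stayed at 7.93, 20.7 and 18.4. The median cluster was 77, 116 and 88 nt long with RNase I and 40.5 and 37 nt with RNase T1. Its 26 clusters with RNase T1 1/1 left gaps of up to 223 nt, at nt 1644 to 1866, and the largest gap with RNase T1 0.25/0.25 was nt 1702 to 2174.

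The reads of HMGA2 were concentrated in the middle of its 3′UTR in each IGF2BP3 library. Of 5 equal parts, that of nt 601 to 1200 held 31.3% to 43.6% of 3′UTR reads and that of nt 1201 to 1801 held 31.0% to 38.6%. The part of nt 1802 to 2401 held 4.42% to 10.8% in 4 libraries and 0.67% with RNase T1 0.25/0.25. With RNase I 0.05/0.05 a single cluster, nt 1004 to 1773, held 1345 of the 2742 reads. RNase T1 1/1 broke up the same stretch, with 466 reads at nt 1095 to 1271 and 187 reads in only 45 nt at nt 1539 to 1583, the densest of its clusters at 4.16 reads per nt. With RNase T1 0.25/0.25 the most reads, 116, lay at nt 645 to 846, and the densest cluster was nt 1233 to 1267, with 47 reads in 35 nt.

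**Figure D4:**
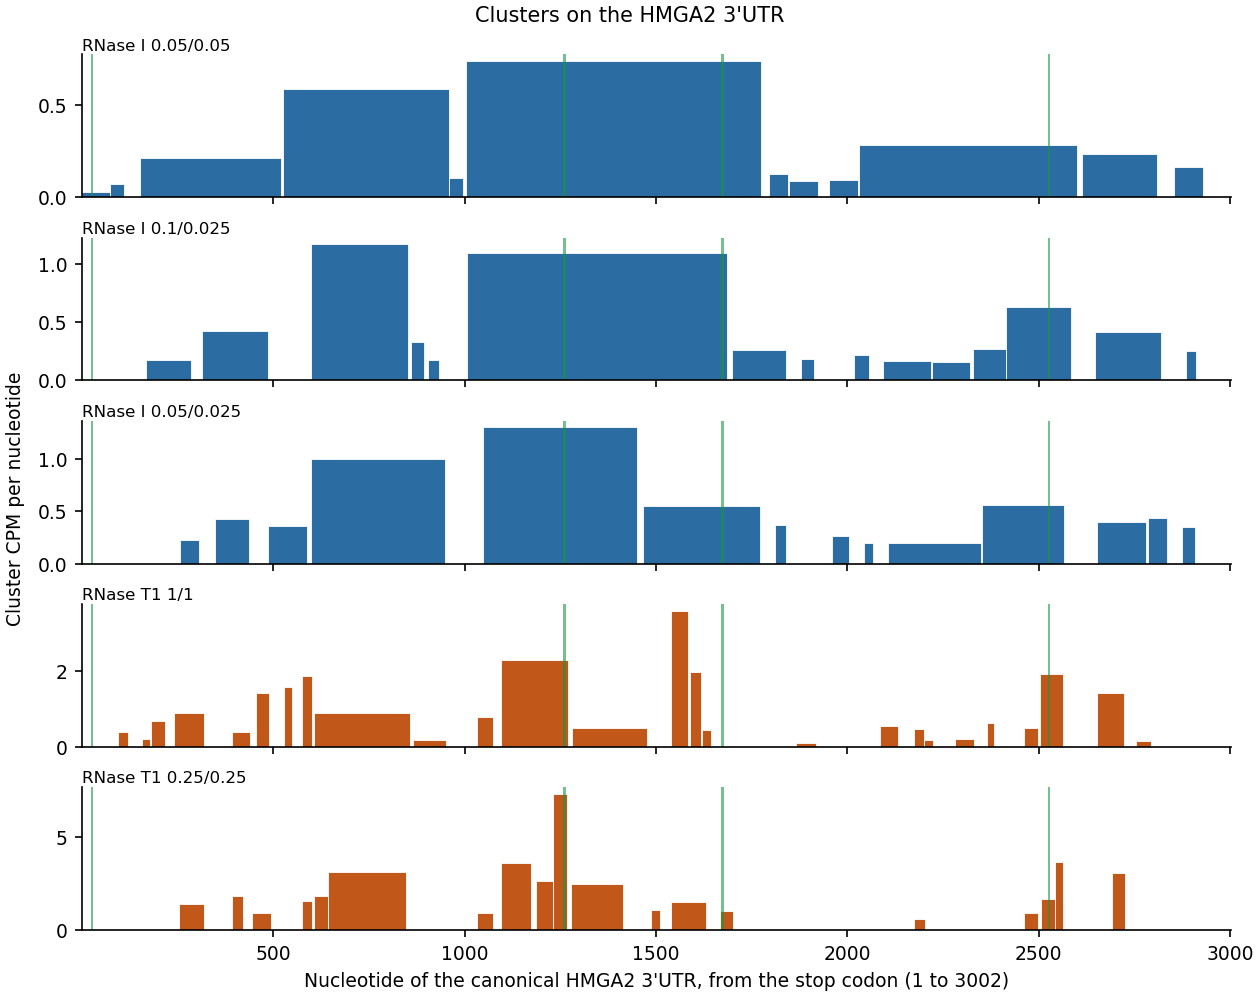
Clusters along the canonical HMGA2 3′UTR (nt from the stop codon) in the 5 IGF2BP3 libraries, each as a block of its length with a height of its CPM per nucleotide on an axis of its own per library, and the 4 let-7 matches as green lines. RNase T1 (orange) gave shorter and more separate blocks than RNase I (blue), with 26 clusters at 1/1 against 12 on the 3′UTR with RNase I 0.05/0.05.

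What RNase T1 covered was nearly all within what RNase I covered. In HMGA1, 991 of 1350 nt (73.4%) lay under clusters of all 5 IGF2BP3 libraries, the longest stretch being 262 nt at nt 102 to 363, and 3 nt under none. In HMGA2, 850 of 3002 nt (28.3%) lay under clusters of all 5, the longest stretch being 241 nt at nt 606 to 846, and 173 nt under none. Only 3 nt of HMGA1 and 10 nt of HMGA2 were covered with RNase T1 and with no RNase I library. By contrast, 67 and 1177 nt were covered with RNase I and with no RNase T1 library. These counts pool 3 RNase I libraries against 2 RNase T1 libraries. They were not matched for depth, which was greater with RNase I in each pair of the enzymes compared above. All 3 RNase I libraries shared 532 nt of HMGA2 that neither RNase T1 library covered, in 21 stretches of up to 78 nt, the longest at nt 2384 to 2461.

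The profiles were also compared in 50-nt bins of CPM per nucleotide, as a description, since neighbouring bins share clusters. Over the 27 bins of HMGA1, Pearson's r was 0.82 to 0.96 between RNase I libraries and 0.30 between the 2 RNase T1 libraries. Over the 61 bins of HMGA2, r was 0.79 to 0.83 between RNase I libraries and 0.72 between the RNase T1 libraries. Between the enzymes r was 0.36 to 0.85 for HMGA1 and 0.53 to 0.77 for HMGA2. By this measure the 2 RNase T1 profiles resembled each other less on HMGA1 than on HMGA2. The reads of a cluster were spread evenly over it, so that r also depends on where the clusters of each library were cut.

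The last bases of clusters followed the enzymes, whereas the base before a cluster start was not always G with RNase T1. With RNase T1 1/1 it was A before the HMGA2 cluster with the most reads, nt 1095 to 1271. Before that of HMGA1, nt 539 to 971, it was G. With RNase T1 1/1, 7 of 7 HMGA1 clusters and 26 of 26 HMGA2 clusters ended in G, and with RNase T1 0.25/0.25 10 of 13 and 17 of 19 did, as did 94.7% and 91.7% of all clusters in these libraries. With RNase I, 3 of 6, 0 of 4 and 2 of 6 HMGA1 clusters and 1 of 15, 1 of 15 and 0 of 15 HMGA2 clusters ended in G, against 11.8% to 12.95% of all clusters. The edges of HMGA2 clusters also recurred. Of the 26 and 19 HMGA2 clusters with RNase T1, 5 shared a start, 5 shared an end and 2 shared both, whereas between RNase I libraries no start and 1 end coincided. The ends of these 2 clusters are given with the last base of the cluster in capitals and 15 nt after it.
HMGA2, chr12:65964350-65964379: tctctcttttcattGtgtatcagtttccat
HMGA2, chr12:65965773-65965802: cacttttatttcctGtatgttgtacaatca
Covered bases were poorer in G than uncovered ones in every IGF2BP3 library. On HMGA2 the share of G was 14.9% under RNase T1 1/1 clusters and 19.9% outside, 12.2% and 20.0% with RNase T1 0.25/0.25, and 15.7% to 16.4% against 20.0% to 26.9% with RNase I. On HMGA1 it was 23.3% against 34.5% with RNase T1 1/1 and 22.9% against 28.8% with RNase T1 0.25/0.25. With RNase I it was 23.7% to 24.1% against 35.8% to 50% on HMGA1. Few bases were uncovered there, since clusters covered 1344, 1328 and 1297 of 1350 nt at 0.05/0.05, 0.1/0.025 and 0.05/0.025.

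CATT, CAGT and CATA, plain tetramers from the motif analysis of the series, were counted on the transcript strand of the 3′UTRs, where none can overlap another. CATT occurred 19 times in HMGA2, 6.33 per kb against 5.70 per kb in all canonical 3′UTRs. The 850 nt shared by all 5 libraries held 9 of them, 10.6 per kb. HMGA1 held CATT 6 times, 4.44 per kb, all 6 within its shared 991 nt. CAGT occurred 13 times in HMGA2, of which 12 lay under RNase I 0.05/0.05 clusters, 5 under RNase T1 1/1 and 4 under RNase T1 0.25/0.25 clusters. Under RNase T1 1/1 its density was 3.20 per kb, against 4.86 per kb outside. HMGA1 held CAGT 6 times, of which 5 lay under RNase T1 1/1 clusters. CATA occurred 15 times in HMGA2 and 4 times in HMGA1, with 4 and 3 of them in the shared bases. Of all 30-nt windows of canonical 3′UTRs, 14.3% held CATT, 12.2% CAGT and 8.63% CATA. These counts are too few to rank the tetramers within 2 genes.

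The conversions mark crosslinked 4-thiouridine, read as C in place of T. HMGA1 had 0.632, 0.639 and 0.593 conversion events per read with RNase I and 0.516 and 0.569 with RNase T1, in the order of libraries used above. HMGA2 had 0.649, 0.689 and 0.610 with RNase I and 0.514 and 0.562 with RNase T1. The drop from RNase I 0.05/0.05 to RNase T1 1/1 was 0.116 for HMGA1 (0.0802 to 0.152) and 0.135 for HMGA2 (0.0900 to 0.180). From RNase I 0.1/0.025 to RNase T1 0.25/0.25 it was 0.0698 (0.0132 to 0.126) and 0.128 (0.0435 to 0.212), and from RNase I 0.05/0.025 it was 0.0242 (-0.0333 to 0.0818) and 0.0488 (-0.0366 to 0.134), where both intervals held 0. In the cluster with the most reads alone, the HMGA2 difference of the electroeluted pair reversed to -0.00476 and the HMGA1 difference of RNase I 0.1/0.025 to -0.00618. The HMGA1 difference of RNase I 0.05/0.025 also turned negative, to -0.0493, and that of the electroeluted pair was 0.143. The HMGA2 differences of the crushed-gel pairs rose to 0.308 and 0.256. The clusters with the most reads did not span the same nucleotides in the libraries compared. Over genes with at least 100 reads the medians were 0.638 with RNase I 0.05/0.05 and 0.512 with RNase T1 1/1, so that both members stayed near the typical gene, within the 39.0th to 79.4th percentile in all 5 libraries. The RNase I clusters of HMGA1 with the most reads had 0.602 to 0.645 events per read.

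Per T that was read, the intervals of the share converted did not overlap between the genes in 2 of the 5 libraries, where the share was lower in HMGA2. The intervals count each conversion event as independent, although 1 read can hold several. Reads of HMGA1 held 6.93 to 8.28 T on average and those of HMGA2 8.49 to 8.83. With RNase T1 1/1, 7.44% (95% Wilson interval 7.02% to 7.88%) of the T of HMGA1 reads were converted and 5.94% (5.58% to 6.33%) of those of HMGA2. With RNase I 0.05/0.05 the shares were 8.06% (7.84% to 8.28%) and 7.48% (7.15% to 7.82%). In the other 3 libraries the intervals of the genes overlapped, which does not show that the shares were equal. HMGA1 and HMGA2 were at 7.95% and 8.12% with RNase I 0.1/0.025, the opposite order, and at 7.17% and 6.91% with RNase I 0.05/0.025. They were at 7.72% and 6.45% with RNase T1 0.25/0.25. There the overlap was narrow, from 7.09%, the lower end of HMGA1, to 7.27%, the upper end of HMGA2.

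Clusters differed widely within a library. With RNase T1 1/1, HMGA2 clusters had 0.143 to 1.00 events per read, and 11 of 26 were above 0.5. These extremes came from clusters of 14 and 5 reads. With RNase I 0.05/0.05, HMGA2 clusters had 0.333 to 1.125, in clusters of 6 and 8 reads. The densest HMGA2 cluster with RNase T1 1/1, nt 1539 to 1583, was at 0.439, and that with the most reads, nt 1095 to 1271, at 0.672. In HMGA1 the RNase T1 1/1 cluster with the most reads, nt 539 to 971, was at 0.488, and that at nt 382 to 510 was lowest, at 0.235 with 196 reads. With RNase T1 0.25/0.25, the HMGA1 cluster over the IgG site was at 0.651, while the 3 HMGA1 clusters at nt 102 to 179, 539 to 642 and 644 to 742 were at 0.370, 0.345 and 0.357.

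**Figure D5:**
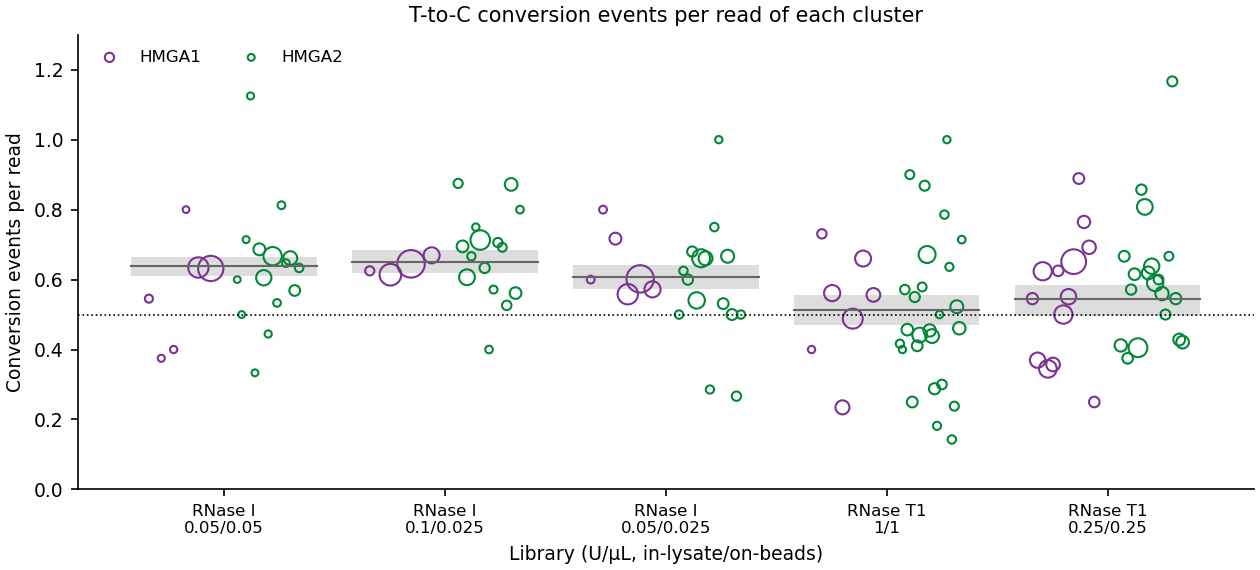
T-to-C conversion events per read of each HMGA1 (purple) and HMGA2 (green) cluster in the 5 IGF2BP3 libraries, ordered along the gene within a library, with larger circles for clusters of more CPM. Grey bands show the middle 50% and grey lines the median of genes with at least 100 reads, and the dotted line is the threshold of 0.5. RNase T1 1/1 clusters of HMGA2 reached down to 0.143, in a cluster of 14 reads.

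Both genes were targets in each of the 5 IGF2BP3 libraries by the criterion of at least 1 cluster above 10 CPM and above 0.5 conversion events per read. Of the 11988 genes with a cluster in at least 1 of these libraries, 17.5% were targets in all 5. The call in a single library was common: 45.0%, 63.3% and 70.1% of genes with a cluster passed in the RNase I libraries and 49.3% and 80.3% in the RNase T1 libraries. HMGA1 passed with 2, 4 and 4 clusters in the RNase I libraries and with 4 and 8 in the RNase T1 libraries. HMGA2 passed with 6, 11 and 9 and with 8 and 13. The IgG cluster of HMGA1 also passed, since 8 of 324 reads exceed 10 CPM by far, as did 46.2% of the 13 genes with an IgG cluster. Above 0.75 events per read, HMGA1 passed in 1 library and HMGA2 in 3.

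The let-7 matches printed above lay under clusters to different degrees. HMGA1 match nt 963 to 969 lay under a cluster in each IGF2BP3 library, with RNase T1 0.25/0.25 in a 46-nt cluster at nt 932 to 977 with 49 reads and 0.551 conversion events per read. With RNase I it lay in the clusters of 2070 to 5244 reads described above. HMGA2 match 2 (nt 1259 to 1265) also lay under a cluster in all 5, and with RNase T1 0.25/0.25 that was the 35-nt cluster of 47 reads, at 0.638 events per read, which was the densest of the library in this gene. HMGA2 match 4 (nt 2524 to 2530) lay under clusters of 381, 86 and 81 reads with RNase I and of 134 and 11 reads with RNase T1. Match 3 (nt 1671 to 1677) was covered in 4 libraries and not with RNase T1 1/1, where it fell in the gap from nt 1644. Match 1 (nt 24 to 30), next to the stop codon and the only one followed by A, lay under a cluster of 8 reads with RNase I 0.05/0.05 alone, at 3.39 CPM. Of the 8 HMGA2 matches to bases 2 to 7 only of the seed, 5 lay under clusters of all 5 libraries. The background for a match under a cluster of 1 library is the share of the 3′UTR covered there, 35.0% to 92.1% in HMGA2, and that for a match under clusters of all 5 is the 28.3% covered in all 5, or 73.4% in HMGA1, and cluster reads belong to the whole cluster, not to the match.

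HMGA1 reads could in part come from, or go to, its processed pseudogenes. The 4 pseudogenes HMGA1P1, HMGA1P4, HMGA1P6 and HMGA1P8 held 23 clusters with 953 reads. Of these, 6 clusters with 65 reads were identical to an HMGA1 transcript over their whole length and therefore uncertain. The other 17 clusters shared exact runs of 21 to 68 nt with one. Reads are shorter than many clusters and were placed with mismatches allowed, so those of the 17 may be uncertain too. HMGA1P1, on chromosome X, had 523 reads with RNase I 0.05/0.05, 7.08% of the HMGA1 reads there, and 3.02% to 4.68% in the other 4 libraries. No HMGA2 pseudogene had a cluster, and no other gene shared the exons of a member cluster on its strand.

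The other genes were described from lists written down with these results known. Of 18 genes of the let-7 axis, 12 had a cluster and 6 were targets in all 5 libraries, where 17.5% of all genes with a cluster were. The 3 with the highest median were CCND1, a cyclin of the G1 phase, with 2603 CPM, CDK6, a cyclin-dependent kinase, with 751 CPM, and NRAS, a RAS GTPase, with 695 CPM. HMGA1, at a median of 4385 CPM, was above each of them, and HMGA2, at 1446 CPM, was above CDK6 and NRAS, without correction for length. By library, 8 of 11, 9 of 10 and 8 of 11 genes with a cluster were targets with RNase I and 8 of 10 and 6 of 8 with RNase T1, where 45.0%, 63.3%, 70.1%, 49.3% and 80.3% of all genes with a cluster were. No test was made on these lists. LIN28A, LIN28B, IGF2BP1, CCND2, E2F2 and TRIM71 had no cluster, which does not show that these genes were silent. Of 9 other high mobility group genes, 7 had a cluster and 3 were targets in all 5 libraries, the DNA-bending HMGB1 (median 358 CPM) and the nucleosome-binding HMGN4 (351 CPM) and HMGN1 (106 CPM). By library, 5 of 7, 6 of 7 and 7 of 7 with a cluster were targets with RNase I and 3 of 4 and 4 of 4 with RNase T1, to be read against the same shares of all genes.

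The genes whose levels followed those of the members most closely were found among 1671 genes with at least 20 reads in each IGF2BP3 library, as the Euclidean distance of log2 CPM centred on each gene's mean over the 5 libraries. Nearest to HMGA1 were AKIRIN1 (0.099), FAF2 (0.139) and YWHAH (0.162), where the median gene was at 1.31. Nearest to HMGA2 were SLC35F2 (0.030), GRPEL1 (0.098) and RNF11 (0.139), where the median was 1.04. HMGA2 was 756th in likeness to HMGA1, at 1.23, so that the patterns of the 2 members over the libraries were not close to each other.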

How the data were processed

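Tools and versions are those of the submitters' processing notes and the methods. The authors took UMIs from the reads with UMI-tools 1.1.1, trimmed reads to a set length range (Trimmomatic 0.30) and placed them on GRCh38 using Bowtie 0.12.7, which places no read across a splice junction, then removed UMI duplicates and ran PARalyzer per library. The deposited cluster tables hold counts of reads, of conversion events and of non-conversion events, not normalized. The deposited mode score, a fraction, was not used. The methods write 0.01 U/µL once for the in-lysate concentration that the labels give as 0.1, which was used.

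Clusters were assigned to GENCODE release 44 exons with bedtools 2.31.1 (at least 1 nt, same strand), and counts were summed in Python 3.11.15 with pandas 2.3.3 and numpy 2.4.6. CPM refer to the summed cluster reads. Exact Poisson, exact conditional binomial and Wilson intervals came from scipy 1.17.1. Intervals of differences in conversion events per read are normal approximations for counting error. Reads are deduplicated, but several conversion events can stem from 1 read. Plots were drawn with matplotlib 3.10.9. Of 110 member clusters wholly within a canonical 3′UTR, 110 matched the reference sequence. On simulated data, 2000 of 2000 clusters returned to their gene and 0 on the opposite strand, and the ratio intervals held the true value for 95.7% of 8685 genes.

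Named genes were the members, their pseudogenes, the 3 nearest genes by pattern, the 3 highest of each list and the let-7 axis genes without a cluster. Members, lists and rules were chosen with earlier results of these data known, and the comparison with genes of at least 100 reads was added later. Alternatives changed the denominator, read minimum, overlap, gene length, 3′UTR annotation, thresholds and seed match.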

Additional observations from a re-analysis of the deposited data

How the results depend on the processing

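No paired analysis was possible because each condition was 1 library. Median-of-ratios size factors, clusters of at least 10 reads, assignment by 50% of the cluster and added pseudogene clusters moved no RNase I over RNase T1 ratio of either gene beyond its interval. In alternatives chosen after seeing the data, leaving out clusters at the IgG site reversed the HMGA1 ratio of RNase I 0.05/0.05 over RNase T1 1/1 to 0.606 and moved those of RNase I 0.1/0.025 and 0.05/0.025 over RNase T1 0.25/0.25 to 0.550 and 0.480, by construction with a longer stretch removed from RNase I. HMGA2 over HMGA1 per kb moved to 0.172 with canonical transcripts and to 0.167 on the 3′UTR alone (also added later). The coverage difference of HMGA2 moved to 35.3 percentage points for clusters above 10 CPM and to 10.6 in the electroeluted pair, and to 9.19 and 8.67 in the crushed-gel pairs, when the 3′UTRs of all coding transcripts were used. With clusters of at least 10 reads, the crushed-gel coverage differences rose to 29.8 and 27.5 points for HMGA1 and to 41.1 and 36.5 for HMGA2. In the cluster with the most reads alone, the conversion difference of HMGA2 reversed to -0.00476 in the electroeluted pair and that of HMGA1 to -0.00618 for RNase I 0.1/0.025. That of HMGA1 for RNase I 0.05/0.025 moved to -0.0493, whereas those of HMGA2 in the crushed-gel pairs rose to 0.308 and 0.256. The cause was not tested. Above 0.75 events per read, HMGA1 was a target in 1 library and HMGA2 in 3. With matches to bases 2 to 7, 5 HMGA2 sites lay under clusters of all 5 libraries, and with a following A 0 sites of either gene. Of the alternative values of the main results, 32 stayed the same, 10 moved and 2 reversed. Of those of the other comparisons, 39 stayed the same, 14 moved and 1 reversed. Depth limits RNase T1 0.25/0.25 and IgG most.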
